A study of Mus musculus with 40 samples.

Results

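The genes that separated liver from kidney in phenobarbital-treated mice were described from 20 arrays, the livers and kidneys of 10 treated animals, out of 40 arrays in the whole series. The animals were male B6C3F1/Crl mice, the cross of C57BL/6 males with C3H/He females, received at an age of 29 to 32 days and kept for 5 days before dosing. Phenobarbital (PB) was supplied at 0.05% (w/v) in drinking water, which the treated animals could take freely, for 28 days (4 weeks). The other 10 animals of the study were controls without PB, and their 20 arrays serve only to show where the liver to kidney ratio differed between PB and control animals. The labels name no transgene or deletion in either group, and all animals were males of 1 cross. The values are MAS5 signals of Affymetrix Mouse430_2 arrays, a linear intensity for each probe set, and a signal of 50 is the level that the study's methods took as the limit of expression. A gene was tested if a probe set reached a mean of 50 in either tissue of the PB animals, which left 11046 genes (21377 probe sets). The brightest probe set stood for a gene.

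PB is a barbiturate that acts on hepatocytes through the constitutive androstane receptor (CAR, Nr1i3), which moves into the nucleus and switches on genes of drug oxidation, conjugation and transport. The liver makes most plasma proteins and clears foreign compounds, whereas the kidney filters plasma and recovers solutes along a tubule whose segments each carry their own transporters. Both tissues express cytochrome P450 enzymes, glutathione S-transferases and organic ion transporters, but often different members of these families. Since these are whole tissues, fewer cells of a type and less RNA per cell cannot be told apart in any value below.

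The arrays of the PB animals were alike in overall distribution, with a median signal of 33.6 to 37.2 in liver and 30.0 to 34.1 in kidney, and arrays of 1 tissue of the PB animals correlated with an r of 0.902 to 0.919 in liver and 0.929 to 0.944 in kidney. The labels give the liver and the kidney of an animal the same number, and the test used this number as a block. In control animals the numbers were borne out by the values: over 15416 probe sets that reached a mean of 50 in all 4 groups, the deviations of same-numbered tissues from their group means correlated with a median r of 0.131 (0.064 to 0.211), and 8 of 10 livers were matched best by their own kidney. In PB animals this median r was 0.0142 (-0.074 to 0.137), and 2 of 10 livers were matched best by their own kidney. Cish, an inhibitor of cytokine signalling that varied widely between animals of both groups, had an r between same-numbered tissues of 0.97 in controls and -0.015 in PB animals (10 animals each). Cish was chosen after its values had been seen. Its liver minus kidney difference had the largest SD in PB animals (2.02, controls 0.37) among genes with both PB means of at least 50. It is therefore an example and no separate support. Why same-numbered PB tissues did not match was not tested. The ranges of the 10 livers and the 10 kidneys, which do not use the numbers, are therefore given below. Counts without the block stand beside the main ones.

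Some PB arrays stood apart for groups of genes. Of the 114 genes at least 64-fold higher in liver, 79 had their highest kidney signal in kidney 19, where their median signal was 49.3, against 14.1 to 20.6 in the other 9 kidneys. Apoa1 read 177.1 in kidney 19 and 2.0 to 31.7 in the others. Some control kidneys were raised too: Apoa1 read 90.4, 94.9 and 124.1 in control kidneys 1, 3 and 9, and 1.0 to 63.3 in the other controls. The liver gene Alb read 582.7, 922.8 and 735.8 in control kidneys 1, 3 and 9, and 61.2 to 416.1 in the other controls. In PB kidneys Alb read 1029.6 in kidney 19 and 79.8 to 173.8 in the others. In the kidneys of PB animals the summed signal of 8 adipocyte and brown fat markers ran from 1196 to 8053 (median 2564), against 1041 to 1802 (median 1190) in control kidneys, and was highest in kidneys 12, 15 and 17. The part of these arrays in the results was not tested, except where values without them are given.

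**Figure D1:**
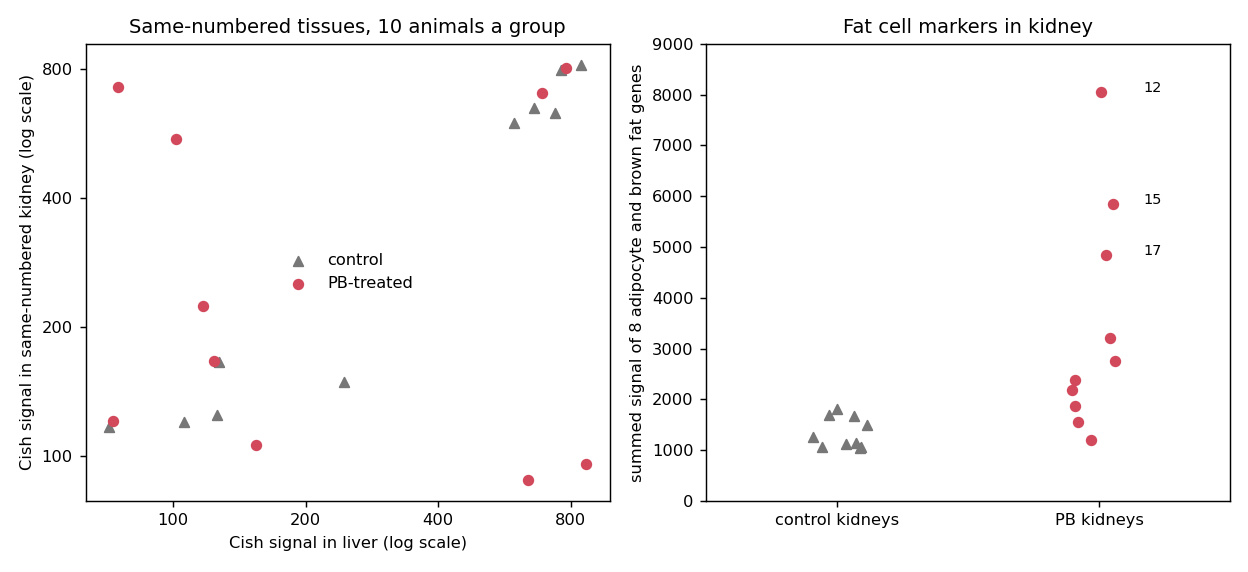
Left, Cish signal (MAS5, log scales) in the liver and the same-numbered kidney of 10 control (triangles) and 10 PB-treated animals (circles), with r = 0.97 in controls and -0.015 in PB animals. Cish was chosen after its values had been seen. Right, the summed signal of 8 adipocyte and brown fat markers in each kidney, with PB kidneys 12, 15 and 17 numbered; PB kidneys spread from 1196 to 8053 and control kidneys from 1041 to 1802.

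Liver and kidney of PB animals differed in most genes. Of the 11046 genes, 3966 were higher in liver (35.9%) and 5120 higher in kidney (46.4%) at an adjusted p under 0.05 in limma's test with the animal as block, and 1960 were not called (82.3% were called in either direction). Without the block the counts were 4003 and 5144. The balance between the directions depended on how arrays were scaled: 43.6% of the called genes were higher in liver as deposited, 36.9% after centring each array on its median and 54.4% after centring on the median of those probe sets whose mean reached 50. These scalings moved the median difference of all genes, -0.113 on the log2 scale, by -0.126 and 0.196, so small differences have no firm direction. Of the called genes 3973 differed by less than 1.5-fold, with means under 50 taken as 50.

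A gene was named enriched in a tissue if it was called and its mean signal was at least 4-fold higher there, with means under 50 taken as 50, so that a ratio to a tissue under 50 is a lower bound. By this rule 603 genes were liver-enriched (5.46%) and 734 kidney-enriched (6.64%). All 10 livers lay above all 10 kidneys in 600 of the 603, and all 10 kidneys above all 10 livers in 731 of the 734. Over all genes tested the shares were 21% and 29.6%. The enriched genes were chosen by their difference in these same arrays, so their separation is largely built in. The exceptions were Alas1, Igfbp1 and Lcn2 in liver and Adipoq, Fabp4 and Slc14a2 in kidney, named after their values had been seen. The steepest ratios were on the liver side: 114 genes were at least 64-fold higher in liver and 34 in kidney, although more genes were at least 2-fold higher in kidney (1836) than in liver (1247). The other tissue stayed under a mean of 50 for 283 liver-enriched genes (46.9%) and 397 kidney-enriched genes (54.1%). The probe sets that stood for liver-enriched genes, 1 per gene, were set against the summed signal of all probe sets of an array. They made up 17.1% to 19% of it in a PB liver and 1.01% to 1.19% in a PB kidney. Other probe sets of the same genes count in the total only, so the shares of the genes themselves are higher. Counted in the same way, the probe sets of kidney-enriched genes made up 9.29% to 10.1% of a PB kidney and 0.586% to 0.665% of a PB liver.

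**Figure D2:**
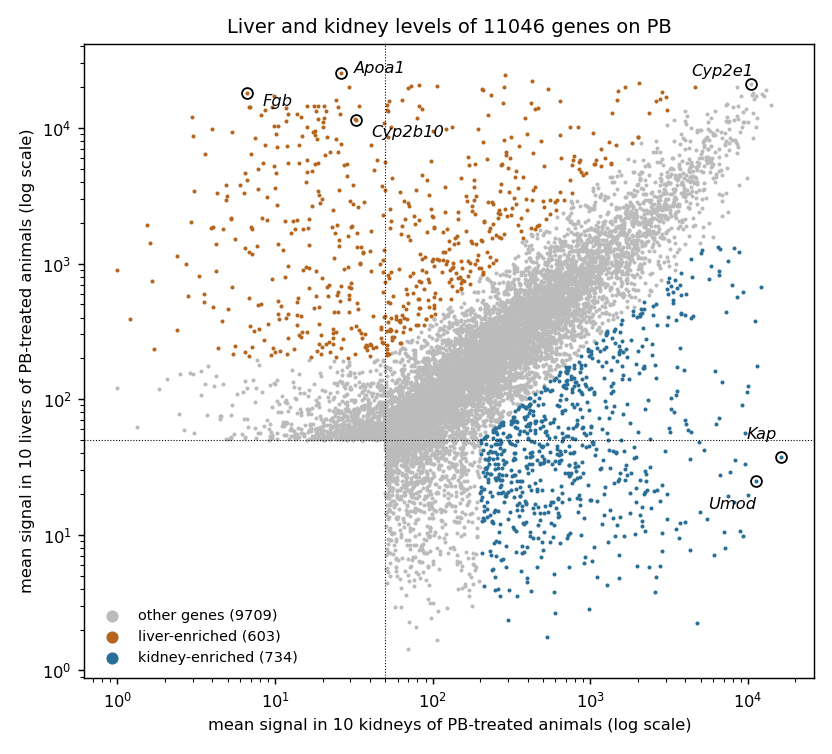
Mean signal (MAS5, log scales) of each of the 11046 genes in the 10 kidneys (x axis) and the 10 livers (y axis) of PB-treated animals, with liver-enriched genes in brown (603), kidney-enriched genes in blue (734) and a mean of 50 as dotted lines. Apoa1, Fgb and Cyp2b10 lie at the top left, with kidney means under 50, Kap and Umod at the bottom right, with liver means under 50, and Cyp2e1 (20936 and 10410.0) at the top right.

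The 12 largest liver ratios belonged to Apoa1, Cyp2c50, Fgb, Ces1c, Hpx, Serpinc1, Ugt2b1, Cps1, Cyp2c70, Cyp2d10, Plg and Cyp3a25. Apoa1, the main protein of high-density lipoprotein, ran from 22129.7 to 31704 (median 25609) in the 10 livers of PB animals and from 2 to 177 (median 7.7) in their kidneys. The tissues did not overlap, and the liver mean was at least 510.1-fold higher, with a fitted log2 difference of 11.51 ± 0.53 (SE, adjusted p = 7.59e-11). Fgb, the beta chain of fibrinogen, ran from 13547 to 20479 (median 18361) in liver and 0.5 to 56.4 (median 0.75) in kidney, at least 363-fold. The P450 enzyme Cyp2c50 followed the same pattern, with 17998 to 24999.5 (median 20009) in liver against 2.3 to 174 (median 14.9) in kidney, at least 404-fold. The heme carrier Hpx (at least 323-fold), the carboxylesterase Ces1c (at least 343-fold), the fibrinolytic zymogen Plg (at least 288-fold) and Cps1, the first enzyme of the urea cycle (at least 290.3-fold), were also among the 12 steepest. For Serpinc1, antithrombin, the kidney mean was above 50 (52.8), and the ratio was 299-fold. Without animal 19 the fitted log2 difference of Apoa1 was 12.

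The 12 largest kidney ratios belonged to Kap, Umod, Klk1, Miox, Cltrn, Dnase1, Oxct1, Slc34a1, Fxyd2, Napsa, Slc7a13 and Tmigd1. Kap, the androgen-regulated protein of the proximal tubule, ran from 14223 to 20090.2 (median 16031) in the kidneys and 2.2 to 234 (median 7.65) in the livers of PB animals. Its kidney mean was at least 325-fold higher, with a fitted log2 difference of -10.35 ± 0.55 (SE, adjusted p = 4.65e-10), and liver 17 held the liver value of 234. Umod, the uromodulin secreted by the loop of Henle, ran from 10071 to 12820.2 (median 11162) in kidney and 16.5 to 37.3 (median 23.2) in liver, at least 224-fold. Miox, which opens the ring of myo-inositol, ran from 7921 to 11213 (median 9877) in kidney and 13 to 66.5 (median 31.2) in liver, at least 192-fold. Slc34a1, the phosphate transporter of the proximal brush border, was at least 166-fold and Fxyd2, a subunit of the sodium pump, at least 164-fold higher in kidney. Oxct1, the enzyme with which tissues other than liver use ketone bodies, had a liver mean of 56.6 and was 169.9-fold higher in kidney. Klk1, a tissue kallikrein, was at least 199-fold higher in kidney by its brightest probe set, but 1 of its 4 probe sets was called higher in liver.

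Promoter sequences are shown for 7 genes that carry these contrasts, chosen after their values had been seen: 3 genes that PB livers showed far above control livers (Cyp2b10, Cyp2c55 and Orm3, described below), Fgb, and 3 kidney genes. Each is the 100 bases before the RefSeq start (assembly GRCm38.p6), written 5′ to 3′ on the strand of the gene. Capitals mark TATAAA (the core of a TATA box), the CCAAT box, and GTTAAT (part of the letters that the hepatocyte nuclear factor HNF1 binds), each searched on both strands and marked in either orientation.
Cyp2b10 (chr7:25897558-25897657, plus strand): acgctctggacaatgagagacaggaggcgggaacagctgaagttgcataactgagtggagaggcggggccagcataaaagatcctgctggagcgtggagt
Cyp2c55 (chr19:39006919-39007018, plus strand): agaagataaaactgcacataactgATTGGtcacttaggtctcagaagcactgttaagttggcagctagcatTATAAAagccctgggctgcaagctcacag
Orm3 (chr4:63356058-63356157, plus strand): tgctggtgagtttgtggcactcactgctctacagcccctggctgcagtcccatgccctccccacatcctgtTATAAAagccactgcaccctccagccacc
Fgb (chr3:83049864-83049963, minus strand): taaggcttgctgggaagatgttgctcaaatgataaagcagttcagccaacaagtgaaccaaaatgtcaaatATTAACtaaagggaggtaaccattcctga
Kap (chr6:133853668-133853767, minus strand): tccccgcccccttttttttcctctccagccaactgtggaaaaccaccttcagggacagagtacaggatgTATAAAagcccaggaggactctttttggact
Miox (chr15:89334373-89334472, plus strand): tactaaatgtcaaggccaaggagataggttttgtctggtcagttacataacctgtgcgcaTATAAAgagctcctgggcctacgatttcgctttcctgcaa
Slc34a1 (chr13:55399548-55399647, plus strand): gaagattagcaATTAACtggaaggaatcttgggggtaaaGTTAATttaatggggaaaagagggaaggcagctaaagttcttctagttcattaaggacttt
Windows from 250 bases before to 50 bases after the start were available for 479 of the 603 liver-enriched genes (620 promoters) and 575 of the 734 kidney-enriched genes (759 promoters). TATAAA stood in 16.6% of the liver-enriched and 10.3% of the kidney-enriched promoters, against 7.98% of those of all genes tested and 13.6% of all 32851 promoters in the table. GTTAAT stood in 10.5%, 8.17%, 4.97% and 7.1% in the same order. CCAAT stood in 40.8%, 31.5%, 36.8% and 37.4%. The median ratio of observed to expected CpG was 0.338 in liver-enriched, 0.608 in kidney-enriched and 0.744 in tested promoters, and 0.384 in all promoters of the table. These are descriptions of letters, and no binding was measured.

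Hepatocyte and tubule markers followed the labels, while lists of other cell types varied. Of 20 tested hepatocyte markers 19 were higher in liver, with a median log2 ratio of 6.69, against -0.0868 over all genes. The exception was Hnf4a, a nuclear receptor also present in the proximal tubule, with means of 4359 in liver and 4288 in kidney. All 18 proximal tubule, 9 loop of Henle, 9 distal tubule and 15 collecting duct markers tested were higher in kidney, with median log2 ratios of -5.99, -4.93, -3.69 and -2.33. Along the collecting duct, Aqp2, the water channel under vasopressin, had a mean of 812 in kidney and 29.4 in liver, and Slc26a4, the anion exchanger of intercalated cells, 635 and 34.7. Of 11 Kupffer cell and macrophage markers 10 were higher in liver, as were 8 of 10 markers of sinusoidal endothelium. Stellate cell and fibroblast markers were higher in liver in 5 and in kidney in 7 of 13. Their split was near that over all genes, of which 35.9% were higher in liver and 46.4% in kidney. Podocyte markers were higher in liver in 1 and in kidney in 7 of 9. The 3 tested cholangiocyte markers, which mark the bile duct cells of the liver, were all higher in kidney, with a median log2 ratio of -3.26: the keratin Krt7 had means of 479 in kidney and 33.5 in liver, the adhesion molecule Epcam 561 and 17.5, and the chloride channel Cftr 84.3 and 8.05. All 5 cholangiocyte markers with a probe set had liver means under 50, so here they give no measure of bile duct cells. All 8 adrenal cortex markers had a mean under 50 in both tissues, so none was tested.

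Secreted proteins were the most one-sided functional groups. All 31 coagulation and complement genes tested were higher in liver (28 liver-enriched, median log2 ratio 5.48), and so were all 17 apolipoproteins and lipoprotein enzymes (16 liver-enriched, median 6.1). Bile acid synthesis was higher in liver in 12 of 14 genes, the urea cycle and amino acid breakdown in 15 of 20, and cholesterol synthesis and uptake in 15 of 18. Fatty acid oxidation had 7 of 16 genes higher in liver and 7 in kidney, near the shares over all genes (35.9% and 46.4%). Its members went their own ways: Acaa2, a thiolase of mitochondria, had means of 5765 in liver and 859 in kidney, whereas Ehhadh, the bifunctional enzyme of peroxisomes, had 1921 and 4625. Genes of gluconeogenesis, which both tissues carry out, were higher in liver in 2 and in kidney in 5 of 8.

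**Figure D3:**
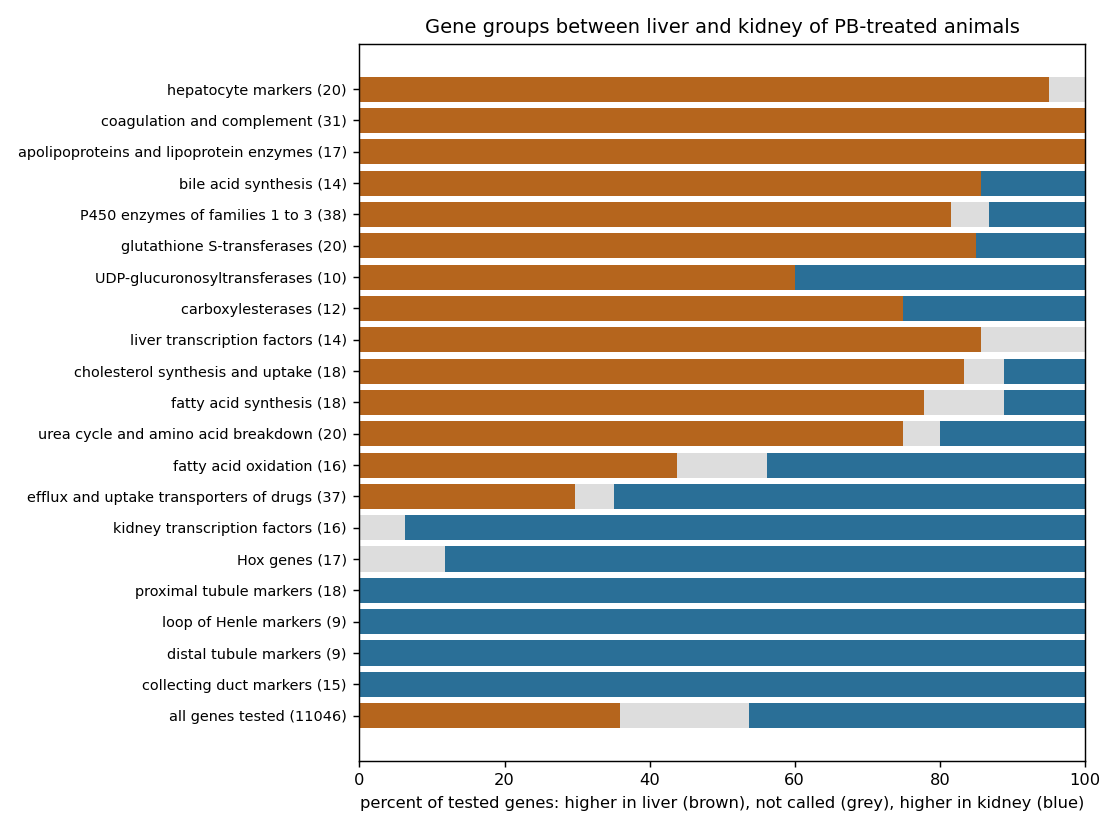
Share of the tested genes of each group (number in brackets) that were higher in liver (brown), not called (grey) or higher in kidney (blue) in PB-treated animals, limma with an adjusted p under 0.05. Coagulation and apolipoprotein genes lie wholly on the liver side, the 4 groups of tubule markers wholly on the kidney side, and all 11046 genes are the last bar.

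Drug-metabolizing enzymes lay mainly, but not wholly, on the liver side in PB animals. Of 38 tested P450 genes of families 1 to 3, which oxidize drugs and steroids, 31 were higher in liver (22 liver-enriched). Another 5 were higher in kidney (2 kidney-enriched), and the median log2 ratio of the 38 was 3.51. Over all genes 35.9% were higher in liver and 46.4% in kidney. In the Cyp2c subfamily, Cyp2c29, Cyp2c37, Cyp2c50 and Cyp2c54 had liver means of 19645, 12680.0, 20186 and 14219, and kidney means of 70, 13.8, 29.4 and 25. Kidney 19 raised these kidney means, which without it were 30.6, 6.64, 13.3 and 16.6. Cyp2e1, which oxidizes ethanol and small solvents, was high in both, with 20936 in liver and 10410.0 in kidney. The kidney-enriched P450 genes were Cyp2j11 (2222 in kidney, 10.7 in liver) and Cyp2j13 (2065 and 13.9), members of a family that acts on arachidonic acid. Close P450 genes can share the signal of a probe set, and a value for 1 member of a subfamily is therefore less certain than that of the subfamily.

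Conjugating enzymes divided by member. Of 20 tested glutathione S-transferases 17 were higher in liver and 3 in kidney (Gstm5, Gstt2 and Mgst3). Gstp1 had means of 20157 in liver and 4589.7 in kidney, and Gstm5 444 and 1855. UDP-glucuronosyltransferases, which attach glucuronic acid to drugs, bilirubin and steroids, were higher in liver in 6 and in kidney in 4 of 10 genes. Within this family Ugt2b1 was at least 292-fold higher in liver, whereas Ugt2b38 had a mean of 9345 in kidney and 622 in liver. Sulfotransferases (with the enzymes that make their donor) were higher in liver in 5 and in kidney in 4 of 9, carboxylesterases in 9 and 3 of 12, and aldo-keto reductases in 7 and 6 of 14, beside 35.9% and 46.4% of all genes, to which the splits of the sulfotransferases and aldo-keto reductases were near. Akr1c6 and Akr1c21, both steroid dehydrogenases, showed the 2 extremes of the last family: Akr1c6 had 13969 in liver and 11.8 in kidney (5.04 without kidney 19), Akr1c21 90 and 9205.

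Of 37 tested transporters of drugs 24 were higher in kidney and 11 in liver, where 46.4% and 35.9% of all genes were. The bile salt uptake carrier Slc10a1 had means of 10082 in liver and 20.2 in kidney, and the bile salt export pump Abcb11 3635 and 9.92. On the kidney side were the organic anion carrier Slc22a6 (3078 in kidney, 19.9 in liver), the organic cation carrier Slc22a2 (2532 and 21.1) and the urate exchanger Slc22a12 (4873 and 47.9). Nr1i3, which encodes CAR, was liver-enriched, with 388 to 531 (median 451) in the livers and 1.3 to 23 (median 2.7) in the kidneys of PB animals. The related xenobiotic receptor Nr1i2 (PXR) was also higher in liver, with means of 196 and 16.4. Ppargc1a, a coactivator of mitochondrial genes, was kidney-enriched (827 against 92).

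Most transcription factors of each list were higher in their own tissue, though not always by much. By the 4-fold rule 8 of 14 liver factors were liver-enriched and 6 of 16 kidney factors kidney-enriched. Of 14 tested liver factors 12 were higher in liver and none in kidney, beside 35.9% and 46.4% of all genes. Hnf4a and the bile acid receptor Nr1h4 were not called. Of 16 kidney factors 15 were higher in kidney and none in liver, with the mineralocorticoid receptor Nr3c2 not called. Foxa1, a pioneer factor of liver development, had means of 589 in liver and 24.9 in kidney, and Pax8, which acts in nephron development, 15.8 and 431. Hox genes, which mark position along the body axis, were higher in kidney in 15 of 17 and in liver in none. Hoxa9 was the steepest, with 1385 in kidney and 13.3 in liver.

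The liver to kidney ratio of most genes was similar with and without PB. Here too means under 50 were taken as 50, which hides changes below that level. Across 11205 genes that reached a mean of 50 in any of the 4 groups, this ratio changed by less than 1.5-fold in 10802 (96.4%). The log2 ratios of the 2 groups correlated with r = 0.9814 (across genes, which are not independent replicates). The test of the difference, the interaction of tissue and treatment over all 40 arrays with the animal as block, called 373 genes with a higher ratio in PB animals (3.33%) and 437 with a lower one (3.9%). Without the block the counts were 399 and 458. Of the calls, 46% were higher ratios as deposited, 29% after centring on the median and 57.9% after centring on expressed probe sets. In 64 genes (0.571%) the within-animal differences of all PB animals lay above those of all controls and in 29 (0.259%) below, by the numbers of the labels. Few of the called changes were large with means under 50 taken as 50, with 53 higher and 25 lower ratios of at least 2-fold. Fitted changes could be larger, as for Meig1 (4.56, with a PB liver mean of 76.3 and its other means under 50). Tests within each tissue share these arrays with the interaction test, so they are no independent support and only show which tissue moved. Of the 373 genes, 302 were higher on PB within liver and 30 lower on PB within kidney. Of the 437, 303 were lower within liver and 60 higher within kidney. PB against control alone called 12.3% of the probe sets in liver and 3.26% in kidney.

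Enrichment itself was mostly stable. Of the genes tested, 560 were liver-enriched and 673 kidney-enriched in both groups of animals, and no gene moved from the enrichment of one tissue to that of the other. In 48 genes the class changed and the difference was called: 19 gained liver enrichment on PB (0.17%), 14 lost it (0.125%), 5 gained kidney enrichment (0.0446%) and 10 lost it (0.0892%). A further 150 genes crossed a limit without a called difference and are not counted as gains or losses. In 37 of the 48 the group outside the class had a ratio measured in both tissues. In 6 (Adssl1, Cnmd and Syt1 among the gains, B3galt1, Il1r1 and Scara5 among the losses) the ratio there was only a lower bound, so it may have been 4-fold or more in both groups, and for these the class shows a change of liver signal against a kidney under 50. In the other 5 (1700067K01Rik, Cyp2b10, Cyp2c65, Nebl and Orm3) both tissues of the controls were under 50.

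**Figure D4:**
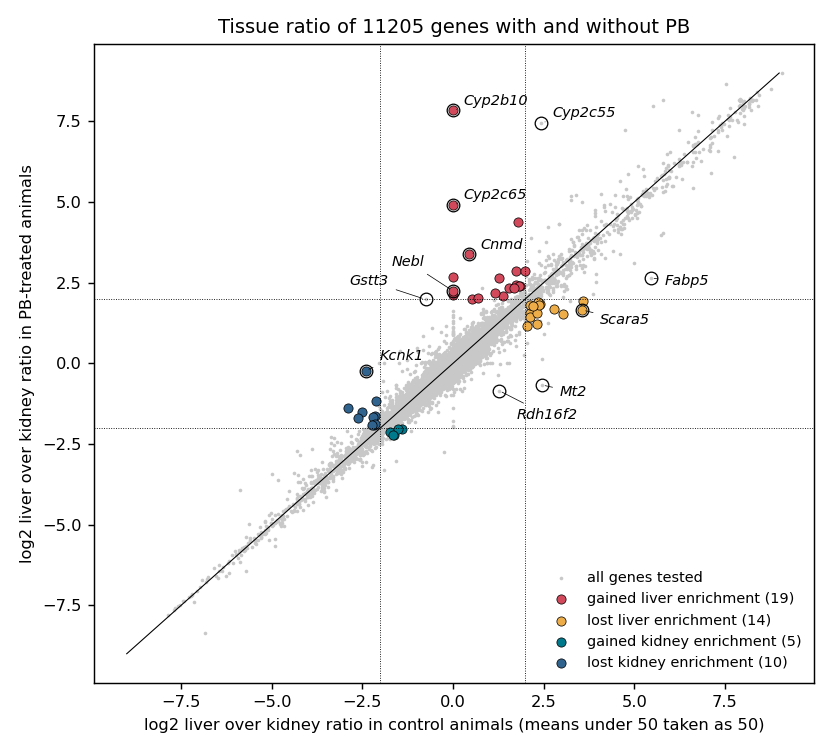
Log2 ratio of liver to kidney mean signal, with means under 50 taken as 50, in control (x axis) and PB-treated animals (y axis) for 11205 genes, with the 4-fold limits dotted and equality as a line. Coloured points are the 48 genes that gained or lost enrichment, and circled genes are named; Cyp2b10 rises from 0 to 7.84, and Rdh16f2 and Mt2 cross from above 0 to below it.

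The genes that gained liver enrichment were led by a P450 enzyme of the CAR response. Cyp2b10, the classical PB-induced P450, ran from 9731 to 12774 (median 11675) in PB livers and 15.7 to 49.5 (median 23.7) in control livers. In kidney it ran from 18.4 to 55.1 (median 31.2) with PB and 34.5 to 56.3 (median 42.4) without, so the kidneys of both groups had means under 50. PB livers stood above all other arrays, at least 229.6-fold above PB kidneys, and the ratio changed by a fitted 9.38 ± 0.19 (SE, adjusted p = 6.68e-20) on the log2 scale. Cyp2c65 showed the same form at a lower signal, with 1143 to 1821 (median 1582) in PB livers, 0.8 to 19.5 (median 12.6) in control livers and 0.9 to 10.3 (median 6.5) in PB kidneys, and a change of 7.30 ± 0.63 (SE, adjusted p = 5.56e-08). For both genes the controls were under 50 in both tissues, so no control ratio is given.

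Other gains came from genes outside drug oxidation. Nebl, a nebulin-like protein of actin filaments, ran from 173 to 301 (median 249) in PB livers against 1.2 to 22.6 (median 4.9) in control livers and 35 to 50.7 (median 41) in PB kidneys, with a change of 5.29 ± 0.40 (SE, adjusted p = 5.8e-09). Cnmd, chondromodulin, ran from 406 to 647 (median 509) in PB livers and 51.2 to 93.4 (median 61.8) in control livers, with a change of 2.90 ± 0.60 (SE, adjusted p = 0.00429). Meg3, an imprinted long noncoding RNA, ran from 1199 to 1803 (median 1515) in PB livers and 179 to 313 (median 237) in control livers, while the kidneys lay at 45.3 to 103 (median 70.9) with PB and 41.8 to 97.8 (median 67.8) without. Its liver to kidney ratio was 3.48 in controls and 20.9 in PB animals, a change of 2.61 ± 0.19 (SE, adjusted p = 2.58e-09). Orm3, an acute-phase plasma protein, ran from 205 to 537 (median 284) in PB livers and 6.1 to 100.2 (median 45.4) in control livers, with a change of 2.97 ± 0.62 (SE, adjusted p = 0.00433). In these genes and in Cyp2b10 and Cyp2c65 the 10 PB livers all lay above the 10 control livers. The uncharacterized 1700067K01Rik (ratio 4.33 in PB animals), Syt1 (at least 6.22, controls at least 2.42) and Adssl1 (7.23, controls at least 3.37) were in the same class with smaller values, and for the last 2 the control ratio was not shown to be under 4.

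Conjugating and heme enzymes completed the gains. Gstm2 had a ratio of 1.63 in controls and 4.08 in PB animals, with a change of 1.32 ± 0.17 (SE, adjusted p = 3.24e-05). Gstm1, Gstt1, Fmo5 and Akr1c19, enzymes of conjugation, oxygenation and steroid reduction, changed by 0.81 ± 0.11 (SE, adjusted p = 3.59e-05), 0.55 ± 0.08 (SE, adjusted p = 0.000224), 0.68 ± 0.11 (SE, adjusted p = 0.000255) and 0.89 ± 0.15 (SE, adjusted p = 0.000569). Alas1, which starts heme synthesis, was variable: it ran from 1284 to 9358 (median 4861) in PB livers and 419 to 6661 (median 1303) in control livers, which overlapped, and from 964 to 1919 (median 1372) in PB kidneys. Its change was 1.79 ± 0.44 (SE, adjusted p = 0.0159), and without animals 12, 15 and 17 it was not called (adjusted p = 0.106). For Hsd11b1, which regenerates active glucocorticoid, kidneys fell and livers were not called: kidney means were 3105 in controls and 1997 in PB animals, and liver means 8099 and 8515, with a change of 0.74 ± 0.12 (SE, adjusted p = 0.000647). Ttc39b fell in kidney and rose in liver, with a change of 1.05 ± 0.14 (SE, adjusted p = 3.69e-05). Inf2 and Pgap2 were the other 2 genes of this class.

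Several genes that were liver-enriched already, or stayed below the limit, changed as much. Cyp2c55 ran from 7380.0 to 9810.0 (median 8954) in PB livers and 161 to 384 (median 265) in control livers, with kidneys at 10.3 to 44.1 (median 15.3). The ratio was at least 5.43 in controls and at least 176 in PB animals, a change of 5.00 ± 0.31 (SE, adjusted p = 2.23e-10). Cyp2c37, Cyp2c54 and Gstm3 changed by 3.12 ± 0.60 (SE, adjusted p = 0.00253), 2.70 ± 0.37 (SE, adjusted p = 6.52e-05) and 2.50 ± 0.16 (SE, adjusted p = 3.11e-10). Gstt3, a glutathione S-transferase, turned from kidney-higher to liver-higher: control livers lay at 172 to 327 (median 199.9) and control kidneys at 309 to 407 (median 381), PB livers at 1148 to 2019 (median 1682) and PB kidneys at 368 to 481 (median 421). Its PB ratio of 3.95 was just under the limit, and the change was 2.74 ± 0.12 (SE, adjusted p = 2.76e-13).

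**Figure D5:**
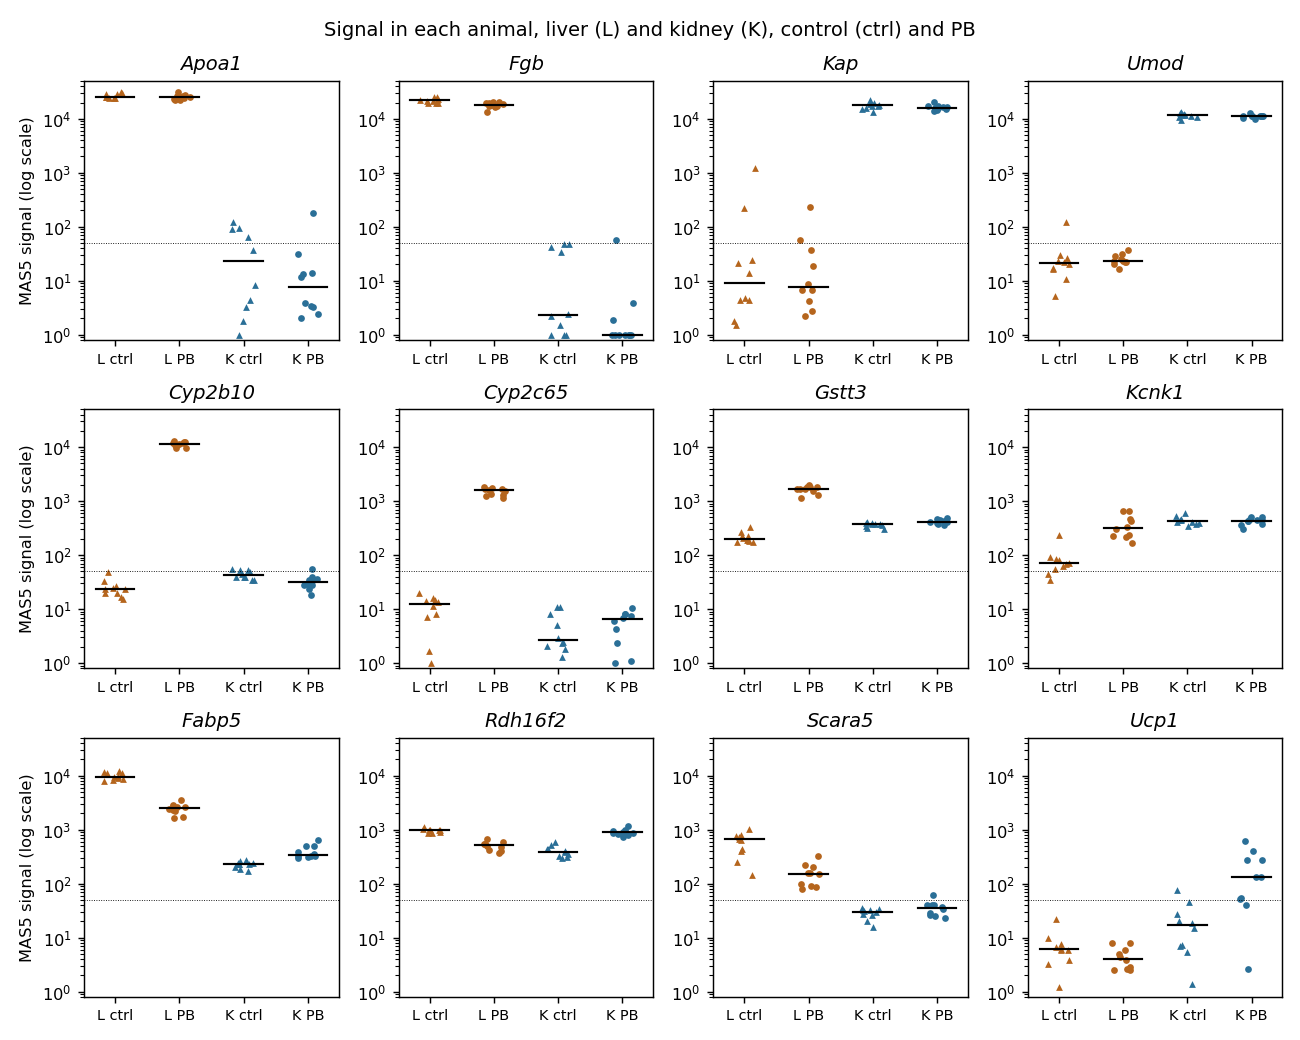
MAS5 signal (log scale) of 12 genes in each of 10 animals per group, in liver (L, brown) and kidney (K, blue) of control (ctrl, triangles) and PB-treated animals (circles), with group medians as bars, values under 1 drawn at 1 and a signal of 50 dotted. Apoa1, Fgb, Kap and Umod keep their tissue with PB; Cyp2b10, Cyp2c65 and Gstt3 rise in liver; Rdh16f2 changes its order between tissues.

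Among the genes that lost liver enrichment, Scara5, a receptor of ferritin, had the largest change with means under 50 taken as 50, and B3galt1 the largest fitted change. Scara5 ran from 142 to 1038 (median 665) in control livers and 81 to 325 (median 153) in PB livers, with PB kidneys at 22.9 to 62.1 (median 35.1). Control and PB livers overlapped, and the change was -2.15 ± 0.34 (SE, adjusted p = 0.000343). Il1r1, the receptor of interleukin 1, had a ratio of at least 11.9 in controls and at least 3.85 in PB animals, with a change of -1.38 ± 0.35 (SE, adjusted p = 0.0194), and its mean in PB animals was 192 in liver and 23.6 in kidney. B3galt1, a galactosyltransferase, had liver means of 407 in controls and 145 in PB animals by its brightest probe set. The change there was -2.18 ± 0.52 (SE, adjusted p = 0.0135). Its other probe sets gave -1.44, -1.17, -0.73 and -0.32, and none of these changes was called (adjusted p = 0.0564, 0.237, 0.582 and 0.826). Acacb, the acetyl-CoA carboxylase of mitochondria, changed by -1.23 ± 0.30 (SE, adjusted p = 0.0156), and Osgin1 by -1.07 ± 0.21 (SE, adjusted p = 0.00273). For Lum, a matrix proteoglycan, kidneys rose and livers were not called: kidneys ran from 31.6 to 83.7 (median 57.1) in controls and 57.3 to 135 (median 87.8) in PB animals, with livers at 222 to 372 (median 279) and 202 to 343 (median 259) and a change of -0.78 ± 0.19 (SE, adjusted p = 0.0143). Without animals 12, 15 and 17 Acacb, Lum and Megf9 were not called (adjusted p = 0.0982, 0.0532 and 0.0643). Ceacam1, Dmgdh, Ebp, Fam3c, Rnf217, Shld2 and Tirap crossed the limit with changes of -0.67 to -0.31, and Rnf217 lost its call when any 1 of 14 animals was left out. Some other probe sets of Ceacam1 stayed liver-enriched with PB. The difference of Rnf217 was called by its brightest probe set only.

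The largest falls in the ratio did not all cross the limit. Fabp5, a fatty acid binding protein, ran from 8095 to 12451 (median 9585) in control livers and 1648 to 3522 (median 2497) in PB livers, and from 169 to 271 (median 234) in control kidneys and 296 to 639 (median 338) in PB kidneys. The groups did not overlap in either tissue, and they moved in opposite directions, taking the ratio from 43.7 to 6.24, a change of -2.79 ± 0.17 (SE, adjusted p = 8.98e-11). Rdh16f2, a retinol dehydrogenase, changed its order: control livers ran from 852 to 1125 (median 982) against 303 to 585 (median 389) in control kidneys, and PB livers from 363 to 664 (median 519.9) against 735 to 1154 (median 892) in PB kidneys. The change was -2.15 ± 0.13 (SE, adjusted p = 1.92e-10). Mt2, a metallothionein, was variable, with 90.1 to 12895 (median 3446) in control livers and 69.2 to 2809.9 (median 108) in PB livers, which overlapped. Its change was -2.96 ± 0.76 (SE, adjusted p = 0.0211), and without the block it was not called (adjusted p = 0.0594). Steap4, a metalloreductase, and Cxcl1, a chemokine, stayed liver-enriched with lower ratios, from at least 53.6 to 15.9 and from 31.9 to 8.69. For Cxcl1 this holds for its brightest probe set, and the interaction test did not call the others (adjusted p = 0.058 and 0.0598). By the latter Cxcl1 was liver-enriched in controls but not in PB animals.

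Of the 10 genes that lost kidney enrichment, 9 were higher on PB within liver, and Tmbim4 was not called there. Kcnk1, a potassium channel, ran from 35.1 to 237 (median 70.4) in control livers and 169.5 to 663 (median 317) in PB livers, with kidneys at 351 to 614 (median 433) and 309 to 515 (median 438). It was 5.32-fold higher in kidney in controls and 1.17-fold in PB animals, a change of 2.24 ± 0.27 (SE, adjusted p = 1.09e-05), and PB livers and kidneys overlapped. Snhg11, a noncoding host of small nucleolar RNAs, went from 7.44-fold to 2.61-fold higher in kidney, with non-overlapping livers of 47 to 81.1 (median 57.2) and 160.2 to 242 (median 197). The efflux pump Abcc4, the dicarboxylate carrier Slc13a2 and the actin bundler Pls1 followed, with changes of 1.65 ± 0.22 (SE, adjusted p = 4.36e-05), 1.39 ± 0.26 (SE, adjusted p = 0.0018) and 1.03 ± 0.20 (SE, adjusted p = 0.00253). Chpt1, Pepd, Sypl, Tmbim4 and Wwtr1 crossed the limit with changes of 0.25 to 0.56. For Chpt1 this holds for its brightest probe set only, and its others were kidney-enriched in both groups. The 5 genes that gained kidney enrichment, Ddah1, Iqgap1, Jag1, Rgs2 and Spc25, changed by -0.71 to -0.38, and this count was the least stable, between 2 and 31 under the settings tried. Some other probe sets of Ddah1 and Iqgap1 were kidney-enriched in both groups. Without animals 12, 15 and 17 Ddah1, Rgs2, Tmbim4 and Wwtr1 were not called. Leaving out any 1 of 7 animals ended the call of Rgs2, and animal 1 or animal 18 that of Wwtr1. The difference of Rgs2 was called by its brightest probe set only.

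Of 11205 genes, 42 had a tissue order that differed between PB and control animals with all 3 tests called. Among the 42, 28 became higher in liver and 14 higher in kidney, and 8 changed by at least 2-fold. Besides Gstt3 and Rdh16f2 these included Gadd45b, a stress-response gene, at 2 to 73 (median 13.4) in control livers and 64.5 to 214 (median 139.8) in PB livers against 39.6 to 85.5 (median 63.6) in PB kidneys. By the other probe sets of Gadd45b the order did not switch, with changes of 1.60 (adjusted p = 0.0026) and 0.34 (adjusted p = 0.591). Gna14, a G protein subunit, changed from a ratio of 0.563 to 1.79, Gsta2 from 0.504 to 1.39 and Pctp, a phosphatidylcholine carrier, from 0.634 to 1.45. Gsta2 was higher on PB in both tissues. The efflux pump Abcc2 changed by 0.60 ± 0.11 (SE, adjusted p = 0.0017), a smaller step. For Gpd1, Hint1, Nucks1, Pdxk, Rreb1 and Tpmt, also among the 42, probe sets of the gene were called in opposite directions between tissues. Small steps have no firm direction under other scalings.

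By function, the called differences were unevenly placed, against 3.33% higher and 3.9% lower over all genes. Of 38 P450 genes of families 1 to 3, 8 had a higher and 3 a lower liver to kidney ratio in PB animals. The lower ones were Cyp2c68, with a change of -1.60 ± 0.42 (SE, adjusted p = 0.0243), Cyp2d9 and Cyp2u1, and without animals 12, 15 and 17 the count of lower ones was 1. Of 20 glutathione S-transferases 7 had a higher ratio, and of 9 sulfotransferase genes 6. Sult1d1, which acts on catecholamines, changed by 1.41 ± 0.09 (SE, adjusted p = 3.01e-10) while staying higher in kidney. Drug transporters had 5 higher and 2 lower of 37, among the higher the efflux pump Abcc3, with a change of 1.77 ± 0.34 (SE, adjusted p = 0.00253), and the uptake carrier Slco1a4, with 1.72 ± 0.23 (SE, adjusted p = 3.26e-05). Of 43 tested genes of a PB response list, 24 had a higher and 10 a lower ratio. Most of the list came from the study's text and its tables of top genes. It also held Cyp2b13 and Cyp2c65, which the study's text does not name, and left out other top genes, such as Cxcl1 and B3galt1. The list rests on these samples, so this count is not independent evidence.

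Fatty acid synthesis leaned the other way, with 5 of 18 genes lower, none higher and 13 not called. Its median change was -0.332 on the log2 scale, against -0.0282 over all genes. This was not particular to synthesis: fatty acid oxidation had 4 of 16 genes lower and none higher, with a median change of -0.105. Stellate cell and fibroblast markers had 4 of 14 lower and none higher. The 5 synthesis genes were Acly, Acaca, Acacb, Elovl5 and Scd1, which supply, carboxylate, elongate or desaturate acyl chains. Scd1, the stearoyl-CoA desaturase, ran from 15232 to 21527 (median 18187) in control livers and 8716 to 19206 (median 12859) in PB livers, and from 807 to 2025 (median 1155) in control kidneys and 1248 to 5444 (median 3052) in PB kidneys, with a change of -1.62 ± 0.27 (SE, adjusted p = 0.000647). The kidneys rose and the livers fell, with overlap in both. The fat cell markers described above were highest in kidneys 12, 15 and 17, and whether they varied together with these genes was not tested. Without animals 12, 15 and 17 the change of Scd1 was -1.235 (adjusted p = 0.00532) and that of Fabp5 -2.553. Without these animals 3 of the 5 synthesis genes were still called (Acaca, Elovl5 and Scd1), whereas Acacb (-0.951, adjusted p = 0.0982) and Acly (-0.417, adjusted p = 0.187) were not. Ucp1, the uncoupling protein of brown fat, ran from 2.6 to 609 (median 133) in PB kidneys and 1.4 to 75.3 (median 16.9) in control kidneys. Its change was -3.35 ± 0.95 (SE, adjusted p = 0.0375), and without those animals -2.278 (adjusted p = 0.216), and leaving out any 1 of 13 animals also ended its call.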

How the data were processed

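Members and gene lists were chosen with earlier results of these data known. The deposited values are MAS5 signals, an intensity per probe set that the authors scaled to a trimmed mean of 150. GCOS and MAS5 appear in the submitters' processing notes with no version. Of 45037 probe sets, 34945 had 1 gene symbol in the platform annotation, 932 several and 9160 none, and 34741 were matched to RefSeq (GRCm38.p6). Signals below 1 were raised to 1 before log2. Probe sets reaching a mean of 50 in either tissue were fitted with limma 3.58.1 in R 4.3.3 (lmFit, eBayes with a trend, two-sided), with the animal number as a fixed block and Benjamini-Hochberg adjustment over all of them. The difference between PB and control was the interaction over 40 arrays, with each gene's brightest probe set over those arrays. Genes named were the 12 with the largest ratio or change in each direction, up to 12 of each class of gain or loss, up to 4 of each list, genes in the study's text and those whose order switched. Other genes, such as Cish, Cyp2e1, Gstp1, Hsd11b1 and Nr1i2, were chosen after their values were seen. The scripts were tested on simulated data. Alternatives covered filters, floors, scaling, blocks, tests, fold limits and each animal left out. The number of arrays limits the precision. Sums, lists and figures were made in Python 3.11.15 (pandas 2.3.3, numpy 2.4.6, matplotlib 3.10.9).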

Additional observations from a re-analysis of the deposited data

Results flagged for a closer look

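Among the genes named, 117 groups of 10 PB arrays were searched for a single array far from the other 9, and 13 had one, where chance gives about 1 in 20. Kidney 14 was the highest of the PB kidneys for 5 tubule genes, with 10075.5 for Fxyd2, 9580.5 for Napsa, 10762.4 for Oxct1, 10164.7 for Slc34a1 and 12820.2 for Umod. Liver 20 was the lowest for Fgb (13546.7) and Shld2 (244.6), and liver 13 the highest for Cyp2c54 (18028.5). Kidney 19 was the highest for Gstm3 (137.8). Kidney 11 was the lowest for 1700067K01Rik (35.6) and Ucp1 (2.6), kidney 12 for Pepd (1621.4) and kidney 15 for Rnf217 (99.4).

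The liver to kidney difference itself differed between PB and control animals by the interaction test in 24 of the genes named for the size of their change. The higher ratios in PB animals, as fitted log2 changes, were those of Cyp2b10 (9.38), Cyp2c65 (7.30), Nebl (5.29), Cyp2c55 (5.00), Cyp2c37 (3.12), Orm3 (2.97), Cnmd (2.90), Gstt3 (2.74), Cyp2c54 (2.70), Meg3 (2.61), Gstm3 (2.50) and Kcnk1 (2.24). The lower ones were those of Ucp1 (-3.35), Mt2 (-2.96), Fabp5 (-2.79), B3galt1 (-2.18), Scara5 (-2.15), Rdh16f2 (-2.15), Steap4 (-2.11), Cdkn1a (-1.63), Scd1 (-1.62), Cxcl1 (-1.61), 3110082I17Rik (-1.53) and Il1r1 (-1.38).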

How the results depend on the processing

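Fitted without the replicate block, since the numbers of the PB animals were not borne out as pairs, 3966 genes higher in liver became 4003, 5120 higher in kidney 5144, and the 373 higher and 437 lower ratios 399 and 458; with a random block they were 4013, 5155, 456 and 537. Among the genes named, Btaf1, Ddit3, Mt2 and Zfp467 lost the call of their difference without the block. Leaving out each replicate gave 3868 to 3952 genes higher in liver, 5028 to 5072 higher in kidney, 599 to 606 liver-enriched and 727 to 736 kidney-enriched. It gave 327 to 436 higher and 346 to 493 lower ratios, 18 to 22 and 13 to 19 gains and losses of liver enrichment, and 4 to 9 and 9 to 15 of kidney enrichment, where animals 11 and 20 moved the gains most. The 5 gains of kidney enrichment became 8 with a filter at 100 or an offset of 16, 10 with a floor of 20 or 50, 16 with median centring, 2 with centring on probe sets whose mean reached 50, and 3 without animals 12, 15 and 17. The last 2 settings were chosen after seeing the data. Without a filter 6587 genes were higher in liver and 281 ratios lower, and median centring gave 658 lower ratios. A 2-fold limit gave 1247 liver-enriched and 1836 kidney-enriched genes, with 44 gains and 33 losses of liver enrichment and 31 and 32 of kidney enrichment. An 8-fold limit gave 380, 350 and 2 gains of kidney enrichment. Student's t on linear signal turned the difference of Prom1 (-33.14) and Slc13a2 (-9.53) without calling them (adjusted p = 0.675 and 0.88). Quantile normalization and centring moved the median tissue difference of all genes by -0.126 to 0.196, and no filter by 0.26. Counting each named gene under each setting, the difference between PB and control lost its call 148 times and gained one 12 times, and the tissue difference 12 and 10 times. The causes were not tested. Signals under 50 give only bounds on a ratio, and differences near the median shift of a scaling have no firm direction.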
